A study of Mus musculus with 12 samples.

Results

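The transcripts described here encode the TIR-domain adaptors of Toll-like receptors (Myd88, Tirap, Ticam1 and Ticam2), the IRAK kinases (Irak1, Irak2, Irak3 and Irak4) and the ubiquitin ligases Traf3 and Traf6. They were found by gene name among the non-control probes of each array: 10 genes with 15 probes, of 55681 non-control probes in all. RNA came from the mouse macrophage line RAW264.7 and was hybridised to single-colour Agilent arrays. An siRNA was given for 24 h, after which 4 h of culture followed, with E. coli LPS (1 µg/ml) or without it. The 4 groups, with 3 arrays each, were the siRNA against lincRNA-Tnfaip3 with LPS, that siRNA without LPS, a scrambled control siRNA with LPS, and the control siRNA without LPS. Every group thus carried an siRNA, so there were no cells without one, and RAW264.7 is a single transformed line. Whether the 3 arrays of a group were separate cultures is not stated in the labels, and each p-value therefore reflects the spread among these arrays only, which may be technical. No probe in the files carries the name of lincRNA-Tnfaip3, and its knockdown was not checked here.

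TLR4, the LPS receptor, signals through a pair of adaptor branches. At the plasma membrane the bridging adaptor TIRAP recruits MyD88, which assembles IRAK4 with IRAK1 or IRAK2 and passes the signal to TRAF6. From endosomes the bridging adaptor TRAM (Ticam2) recruits TRIF (Ticam1), which engages TRAF3 and TRAF6, while IRAK-M (Irak3) holds back the MyD88 branch in macrophages.

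The short stretches below, bases 1 to 30 of each probe from the files, show what was measured for the genes on which the results turn and where a gene had several probes. Probe positions are those of the files, in build mm9. Irak3 was read at chr10:119578999-119579058, minus strand, and Ticam1 at chr17:56409265-56409324, minus strand. Irak2 had a brighter probe, which was used, and another at chr6:113643695-113643754, plus strand, which is the one shown.
Irak3 probe: ttaccaccggcacttaatgctagtctttct
Ticam1 probe: agagtgaccaggttggaccccacctagatg
Irak2 other probe: aagccaaaaggagactgatggagaacatcg
Whether a probe lies in coding sequence or an untranslated region was not analysed here.

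Values are log2 of the processed signal relative to the array's 75th percentile, so 0 is that percentile and a difference of 1 is a doubling. Levels are compared between groups for the same probe and not between genes. Probes entered the test when some group had all 3 of its arrays well above background. All 15 probes were kept, and 14 of them were well above background on all 12 arrays. The exception was Ticam2, which was well above background on 2 of 3 arrays with the lincRNA siRNA and LPS, 1 of 3 with the lincRNA siRNA, 3 of 3 with the control siRNA and LPS, and 1 of 3 with the control siRNA. It entered through the control-siRNA LPS group alone.

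The 12 arrays lay on 3 slides: control-siRNA arrays 1 and 2 on slide 1, lincRNA-siRNA LPS arrays 2 and 3 on slide 3, and the other 8 on slide 2. Those of slide 1 had 27196 and 29450 probes well above background, against 32701 to 36389 on the others. Slides 1 and 3 held 1 group each, so values with the slide as a block rest on the 8 arrays of slide 2, where the control-siRNA and the lincRNA-siRNA LPS groups have 1 array each. They are given where they end a call. The tests with that block take the spread from arrays of a group on the same slide, the pairs on slides 1 and 3 included. Of 10 macrophage markers, 9 were above background on all 12 arrays, Mertk being the exception. Of 21 markers of other cell types, 8 were above background on all 12 arrays and 5 on none (Ms4a1, Pdgfra, Epcam, Cdh1 and Hbb-b1). The summed level of the 11 that were kept, in units of the array's 75th percentile, was 23.3 to 30.3 with the lincRNA siRNA and LPS and 19.5 to 29.2 with the lincRNA siRNA. It was 21.8 to 29.8 with the control siRNA and LPS and 15.3 to 21.3 with the control siRNA, and its part in the LPS changes below was not tested.

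**Figure D1:**
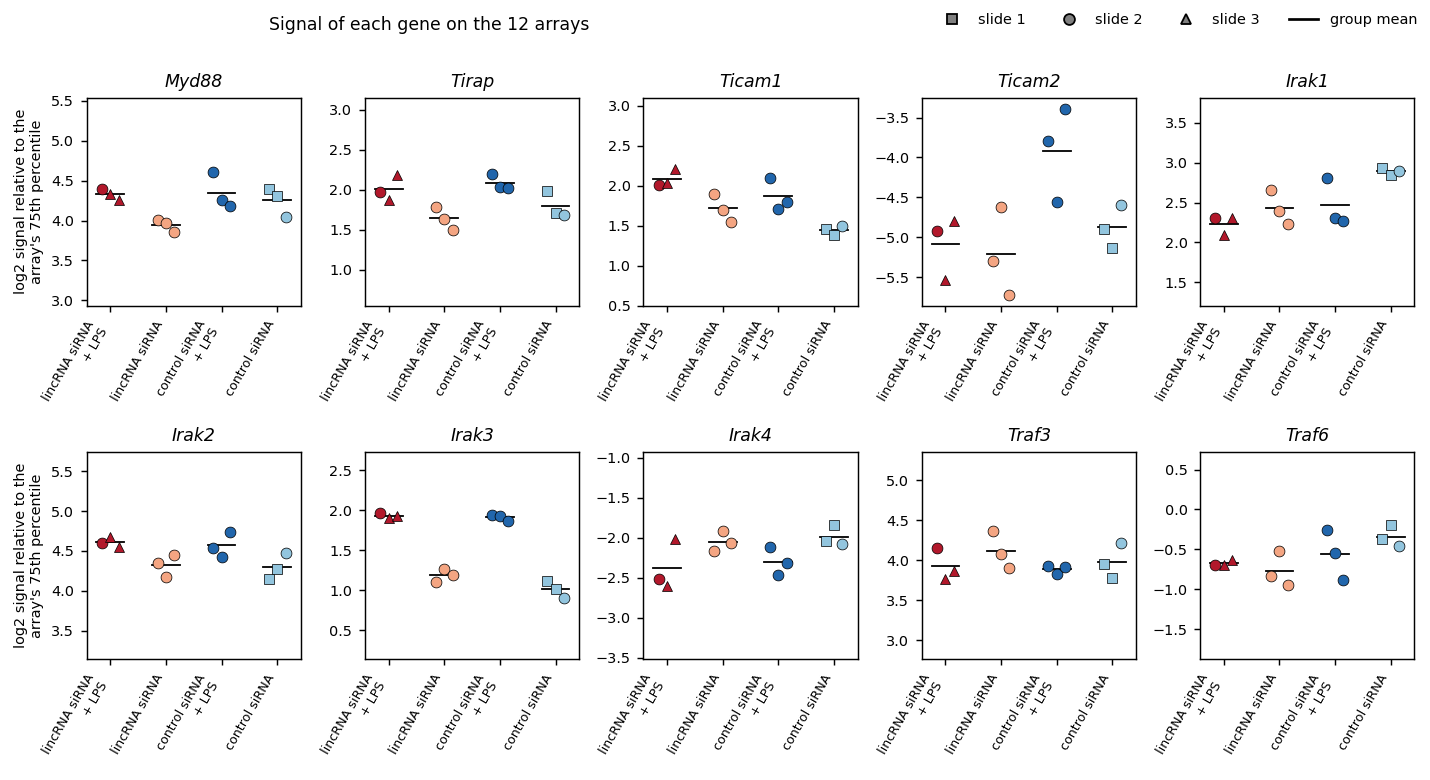
Signal of each gene on each array (log2, relative to the array's 75th percentile) by group. Points are arrays, their shape gives the slide, lines are group means, and every panel spans the same height. Irak3 lies between 1.87 and 1.97 on the 6 LPS arrays, above every array without LPS.

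The first comparison was LPS against no LPS. Irak3 was higher with LPS under both siRNAs, and it was the one member past the threshold in each (adjusted p under 0.05, limma with Benjamini-Hochberg adjustment over 23909 features). Over all features the share past it was 1.84% in lincRNA-siRNA cells, 1.5% being higher with LPS and 0.343% lower. For control-siRNA cells it was 5.14%, of which 3.25% were higher with LPS and 1.88% lower. When LPS was averaged over both siRNAs, 2 of the 10 genes passed, Irak3 and Ticam1, beside 8.21% of all features (4.2% higher and 4.01% lower). The median change of the 10 genes was 0.21 in lincRNA-siRNA cells, 0.18 in control-siRNA cells and 0.26 on average, against -0.01, 0.06 and 0.03 over all features. Without Ticam2, which entered through its higher group, it was 0.28, 0.1 and 0.24 over 9 genes.

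IRAK-M, the product of Irak3, lacks effective kinase activity and limits MyD88 signalling. In lincRNA-siRNA cells Irak3 was at 1.97, 1.90 and 1.93 with LPS and at 1.1, 1.26 and 1.19 without it. The groups did not overlap, and the gap was several times the spread within either. The log2 change was 0.75 ± 0.09 (SE, n = 3 arrays each), a fold of 1.68 with a 95% interval of 1.46 to 1.93 (limma adjusted p = 0.00194). In control-siRNA cells it was at 1.94, 1.93 and 1.87 with LPS and at 1.12, 1.01 and 0.90 without it. Again every LPS array was above every unstimulated array. That change was 0.90 ± 0.09, a fold of 1.87 with an interval of 1.63 to 2.15 (limma adjusted p = 0.000367). Averaged over both siRNAs the change was 0.83 ± 0.06 (limma adjusted p = 3.47e-05). Restricted to the arrays of slide 2, and likewise with the slide as a block, the changes were 0.79 in lincRNA-siRNA cells and 1.01 in control-siRNA cells. Each of these rests on 1 array in an arm (the lincRNA-siRNA LPS arm and the unstimulated control-siRNA arm), so only its size is given here.

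Ticam1 encodes TRIF, the adaptor of the endosomal branch. Its values were 2.01, 2.04 and 2.21 in lincRNA-siRNA cells with LPS, against 1.90, 1.70 and 1.55 without it. In control-siRNA cells they were 2.10, 1.71 and 1.80 with LPS and 1.46, 1.39 and 1.5 without it. Under each siRNA the LPS arrays were all above the unstimulated ones. The changes of 0.37 ± 0.13 in lincRNA-siRNA cells and 0.42 ± 0.13 in control-siRNA cells did not pass on their own (limma adjusted p = 0.31 and 0.0987). Their average, 0.40 ± 0.09 or 1.32-fold, did (limma adjusted p = 0.0284), but not with the slide as a block (0.34; limma adjusted p = 0.412). It also missed the threshold when any of 7 single arrays was left out, namely lincRNA-siRNA LPS 2 or 3, lincRNA-siRNA 2 or 3, control-siRNA LPS 3, or control-siRNA 1 or 2. The average was then 0.36 to 0.41 (limma adjusted p = 0.0536 to 0.0751).

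The other adaptors did not pass. Tirap, which bridges MyD88 to TLR4, averaged 2.01 ± 0.16 with LPS and 1.64 ± 0.15 without it in lincRNA-siRNA cells, and 2.09 ± 0.10 with LPS and 1.80 ± 0.16 without it in control-siRNA cells (SD, n = 3 each). The arrays did not overlap under either siRNA, and the averaged change was 0.33 (95% interval 0.12 to 0.53, limma adjusted p = 0.0569). Without control-siRNA array 1 it was 0.38 and passed (limma adjusted p = 0.0488). Myd88, the shared adaptor of most Toll-like receptors, averaged 4.33 ± 0.07 with LPS and 3.95 ± 0.08 without it in lincRNA-siRNA cells, with no overlap (change 0.38, 95% interval 0.08 to 0.68, limma adjusted p = 0.322). In control-siRNA cells it averaged 4.35 ± 0.23 with LPS and 4.25 ± 0.18 without it, and the arrays overlapped. The Myd88 probe was spotted 10 times per array, and its spots differed with an SD of 0.046 to 0.085 within an array, against SDs of 0.07 to 0.23 between the arrays of a group.

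Ticam2 encodes TRAM, the bridge to TRIF. In lincRNA-siRNA cells it was at -4.92, -5.53 and -4.79 with LPS and at -5.30, -4.62 and -5.72 without it, and those groups overlapped. With LPS it was at -3.79, -4.56 and -3.39 in control-siRNA cells, against -4.90, -5.14 and -4.59 without it. All 3 LPS arrays were higher there, the lowest of them by little, and this is the group through which the probe entered. The change did not pass (0.96, limma adjusted p = 0.147), and it was 0.62 with quantile normalization and 0.12 with normexp background correction.

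Among the other kinases, Irak2, which sustains MyD88 signalling, averaged 4.61 ± 0.06 with LPS and 4.33 ± 0.14 without it in lincRNA-siRNA cells. It averaged 4.57 ± 0.15 with LPS and 4.30 ± 0.16 without it in control-siRNA cells. The averaged change was 0.28 by the probe used (limma adjusted p = 0.0847) and 0.26 by the other probe, so their averaged LPS changes were alike. Without control-siRNA array 3 the averaged change was 0.32 and passed (limma adjusted p = 0.0373). Irak1, an early kinase of the MyD88 complex, was at 2.81, 2.31 and 2.27 with LPS and at 2.93, 2.85 and 2.90 without it in control-siRNA cells. Those groups did not overlap, and the change of -0.43 did not pass (95% interval -0.79 to -0.07, limma adjusted p = 0.152). Without control-siRNA LPS array 1 it was -0.6 and passed (limma adjusted p = 0.0433), as did the average over both siRNAs (-0.4, adjusted p = 0.0327). In lincRNA-siRNA cells Irak1 was at 2.31, 2.09 and 2.31 with LPS and at 2.66, 2.40 and 2.23 without it. The groups overlapped there, and the change was -0.19 (limma adjusted p = 0.796), or 0.05 and -0.03 by the other probes. The 3 Irak1 probes gave averaged changes of -0.31, -0.12 and -0.16. Irak4, the kinase that starts the cascade, had an averaged change of -0.32 (95% interval -0.58 to -0.06, limma adjusted p = 0.129) by the probe used and of -0.03 by its other probe. Without lincRNA-siRNA LPS array 3 the first of these was -0.41 and passed (limma adjusted p = 0.0335). The other Irak4 probe has 60 bases but spans 728 bases of the genome (chr15:94384447-94385174, plus strand), so it joins stretches that lie apart in the genome. It is shown whole because the Irak4 readings differed.
Irak4 other probe: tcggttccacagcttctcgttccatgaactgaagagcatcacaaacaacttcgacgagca

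Neither ubiquitin ligase passed. Traf3, which TRIF engages, averaged 3.93 ± 0.20 with LPS and 4.11 ± 0.23 without it in lincRNA-siRNA cells, and 3.89 ± 0.05 with LPS and 3.98 ± 0.21 without it in control-siRNA cells. The averaged change was -0.14 (95% interval -0.38 to 0.11). Traf6, the ligase downstream of the IRAKs, had an averaged change of -0.06 (95% interval -0.33 to 0.20) by the probe used and 0.18 by a probe 21454 bp away on chromosome 2. The arrays overlapped under both siRNAs for both genes.

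**Figure D2:**
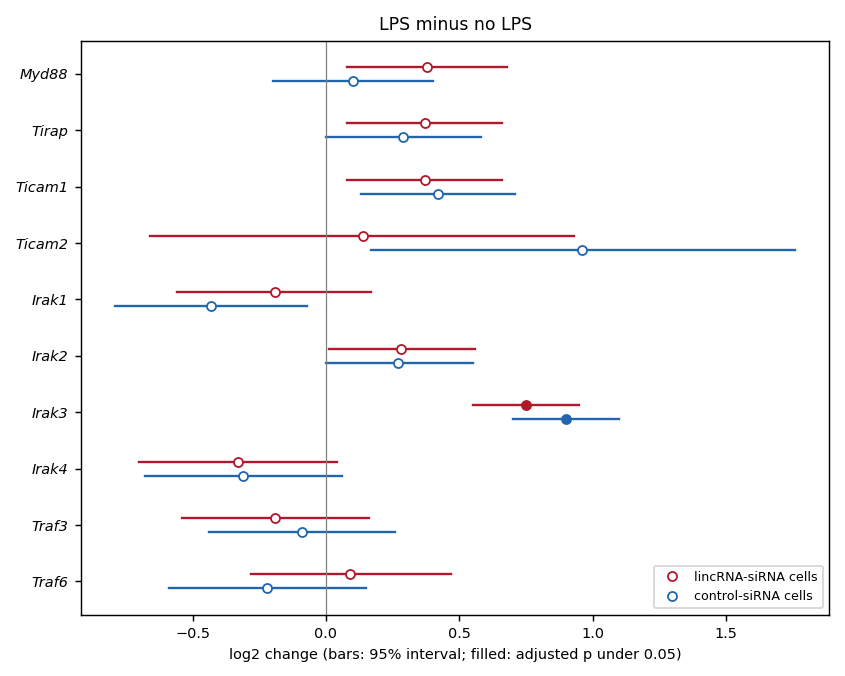
Change with LPS (log2, LPS minus no LPS) in lincRNA-siRNA and control-siRNA cells. Points are limma estimates, bars are 95% intervals, and filled points passed the threshold. Irak3, at 0.75 and 0.90, is the one filled gene.

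By array values alone, 5 of the 10 genes were higher with LPS without overlap in lincRNA-siRNA cells and 0 were lower, beside 7.97% and 7.5% of all features. In control-siRNA cells 4 were higher, Ticam2 among them, and 2 lower, beside 14.8% and 15.3%. Irak3, Tirap and Ticam1 were higher without overlap under both siRNAs. These counts rest on the probes used. Irak2 was among the 5, and by its other probe the arrays overlapped (-0.34 with LPS, -0.25 without it). The 2 lower were Irak1 and Irak4. The other Irak4 probe overlapped (-2.61 with LPS, -3.09 without it). For Irak1 another probe overlapped (1.04 with LPS, 0.97 without it), and the remaining probe did not.

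The second comparison was the lincRNA siRNA against the control siRNA. No member passed with LPS or without it, and 0% of all features did in either (limma). At an unadjusted limma p under 0.05 there were 1106 features with LPS, 1 of them a member, and 4434 without LPS, 3 of them members. The member with LPS was Ticam2, whose probe entered through the control-siRNA LPS group, so nothing is read from it. Those without LPS were Myd88, Irak1 and Traf6. With LPS, Irak3 averaged 1.93 ± 0.03 with the lincRNA siRNA and 1.91 ± 0.04 with the control siRNA. The difference of 0.02 had a 95% interval of -0.18 to 0.22, the narrowest of the 10. By the probes used, Myd88, Tirap, Irak2, Irak4 and Traf3 also differed by under 0.1 with LPS, with intervals that lay between -0.45 and 0.39. The other Irak4 probe gave 0.47 (95% interval 0.02 to 0.92, limma adjusted p = 0.967) and the other Irak2 probe -0.17 (95% interval -0.50 to 0.15).

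With LPS, Ticam2 was at -4.92, -5.53 and -4.79 with the lincRNA siRNA and at -3.79, -4.56 and -3.39 with the control siRNA. It was the 1 gene lower without overlap and 0 were higher, beside 4.28% and 7.13% of all features. Nothing is read from that count, because the probe entered through the control-siRNA LPS group and was well above background on 2 of 3 lincRNA-siRNA LPS arrays. The difference did not pass (-1.16, limma adjusted p = 0.976) and was -0.12 with normexp background correction.

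Without LPS, 1 gene was higher without overlap and 3 were lower, beside 12.2% and 9.19% of all features. Irak1 was at 2.66, 2.40 and 2.23 with the lincRNA siRNA and at 2.93, 2.85 and 2.90 with the control siRNA (difference -0.46, 95% interval -0.82 to -0.10, limma adjusted p = 0.222). Its other probes gave -0.29 and -0.32, and by both of them the arrays overlapped. Their highest lincRNA-siRNA arrays were at 1.04 and 1.64, and their lowest control-siRNA arrays at 0.97 and 1.60. Traf6 was at -0.83, -0.52 and -0.95 with the lincRNA siRNA and at -0.37, -0.20 and -0.46 with the control siRNA (difference -0.43, 95% interval -0.80 to -0.06, limma adjusted p = 0.239). The other Traf6 probe gave -0.24 (95% interval -0.87 to 0.39), and its arrays overlapped. Myd88 was lower by array values (difference -0.30, limma adjusted p = 0.269), and Ticam1 was higher (difference 0.27, limma adjusted p = 0.294). Within slide 2, where 1 control-siRNA array remained, the difference was -0.10 for Myd88, -0.47 for Irak1, -0.31 for Traf6 and 0.22 for Ticam1.

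**Figure D3:**
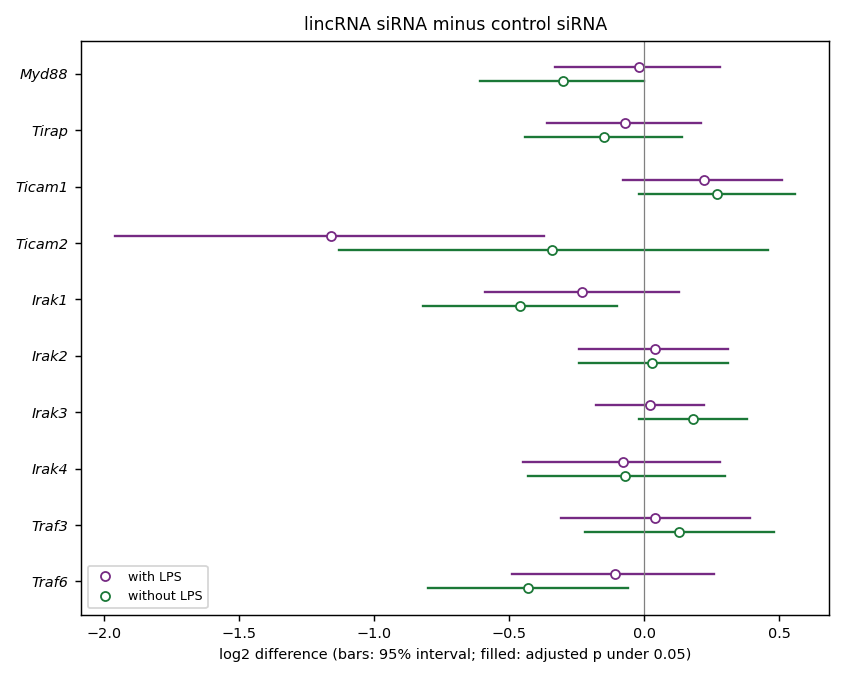
Difference between siRNAs (log2, lincRNA siRNA minus control siRNA) with and without LPS. Points are limma estimates and bars 95% intervals, and no point is filled because no gene passed. Irak3 with LPS, at 0.02, has the narrowest interval with LPS, -0.18 to 0.22, and the Ticam2 points rest on a probe near background.

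Whether the LPS change itself differed between siRNAs was tested as an interaction, where 0% of all features and no member passed (limma, 894 features and 0 members at an unadjusted p under 0.05). For Irak3 the change in lincRNA-siRNA cells minus that in control-siRNA cells was -0.16 (95% interval -0.44 to 0.13). For Traf6 it was 0.31 (95% interval -0.21 to 0.84) and for Myd88 0.28 (95% interval -0.15 to 0.71). The value for Ticam2 was -0.83, or -0.01 with normexp background correction.

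Other genes of the pathway were taken from lists of 61 genes, 57 of them measured. With LPS averaged over both siRNAs, 13 were higher, 2 were lower and 42 did not pass, and their median change was 0.04. In lincRNA-siRNA cells 7 were higher and 1 lower, or 1 in all with the slide as a block. In control-siRNA cells 11 were higher and 1 lower, or 2 in all with that block. None passed in the comparisons between siRNAs or in the interaction (limma). Beside Traf3 and Traf6, 3 of 9 measured genes of the other TRAF list rose on average, with 6 not past the threshold. These were Traf1, an adaptor of TNF receptor complexes (averaged change 1.19, limma adjusted p = 0.00149), Traf5 (1.06, adjusted p = 0.000571) and Trafd1, a TRAF-type zinc finger protein that restrains innate signalling (1.17, adjusted p = 0.00013). Traf5 averaged 1.36 ± 0.05 with LPS and 0.43 ± 0.40 without it in lincRNA-siRNA cells, and 1.48 ± 0.10 with LPS and 0.30 ± 0.12 without it in control-siRNA cells.

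Of 19 kinase and ubiquitin genes downstream, 3 rose on average: Peli1, a ubiquitin ligase that acts with IRAKs and in the TRIF branch, Ikbke, an IKK-related kinase, and Map3k8, the kinase TPL2. Peli1 averaged 5.03 ± 0.29 with LPS and 3.06 ± 0.04 without it in lincRNA-siRNA cells, and 5.18 ± 0.32 with LPS and 3.22 ± 0.08 without it in control-siRNA cells. Its changes were 1.97 and 1.96, and with the slide as a block 2.10 and 2.05. Ikbke changed by 1.23 and Map3k8 by 0.54 on average (limma adjusted p = 0.000774 and 0.00879). Of 15 negative regulators, Tnfaip3, Il1rl1 and Tnip1 rose on average (1.33, 0.97 and 0.59). Tnip1 rested on 1 array fewer, in the control-siRNA LPS group, where its spot was an outlier, and did not pass when slides were blocked (limma adjusted p = 0.12). In the same list Dok3, an adaptor, fell by 0.52 (limma adjusted p = 0.0271), or by 0.59 when slides were blocked (adjusted p = 0.177). Of 8 receptor-complex genes, Tlr4 fell by 0.66 and Cd14 rose by 0.79 (limma adjusted p = 0.00114 and 0.0283), and neither passed when slides were blocked (adjusted p = 0.0678 and 0.352). Of 6 output transcription factors, Irf7, Nfkb1 and Rel rose on average (2.36, 0.95 and 1.40, limma adjusted p = 0.0205, 0.00559 and 0.0319). Irf7 and Nfkb1 did not pass when slides were blocked (adjusted p = 0.311 and 0.167). None of the 6 passed in lincRNA-siRNA cells alone and 3 did in control-siRNA cells (limma). No output factor passed in the interaction, so these counts are not read as a difference between siRNAs. Irf7 varied most in unstimulated lincRNA-siRNA cells, at 1.29 ± 1.89 (SD, n = 3 arrays). With the slide as a block, Nfkb1 changed by 0.84 in lincRNA-siRNA cells and 0.67 in control-siRNA cells, and Irf7 by 1.40 and 3.14. Rel changed by 0.30 in lincRNA-siRNA cells (limma adjusted p = 0.92) and by 2.51 in control-siRNA cells (limma adjusted p = 0.0156). In the latter, 1 of the 3 unstimulated arrays was well above background. With the slide as a block, Rel changed by 0.92 in lincRNA-siRNA cells and by 1.28 in control-siRNA cells. The Rel interaction was -2.22 without that block and -0.36 with it, so no difference between siRNAs is read from Rel.

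**Figure D4:**
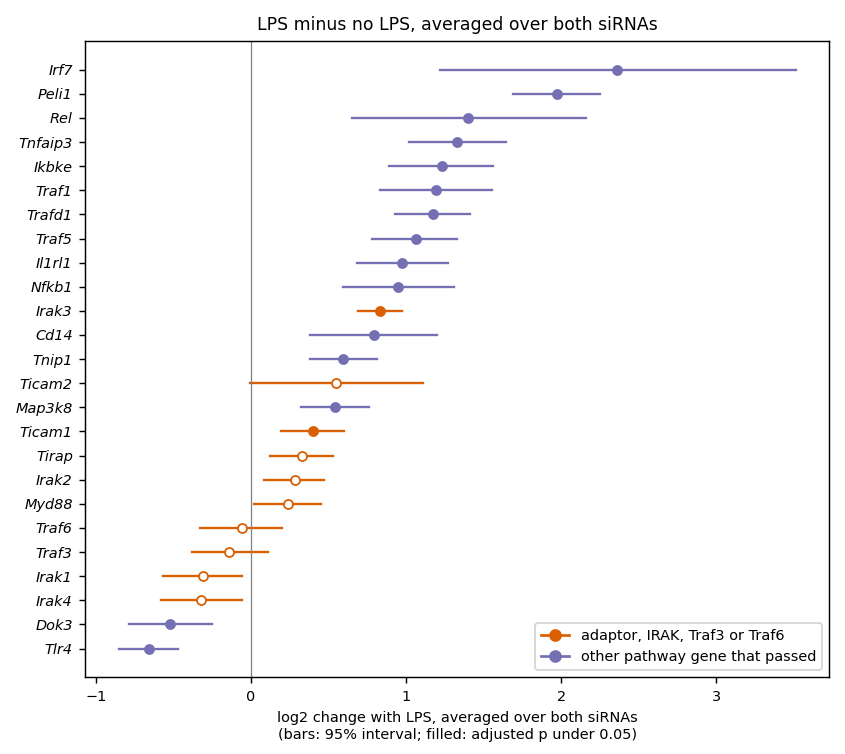
Change with LPS averaged over both siRNAs (log2, LPS minus no LPS) for the 10 adaptor, IRAK and TRAF genes and for the listed pathway genes that passed. Points are limma estimates, bars 95% intervals, and filled points passed. Peli1, at 1.97, lies above every one of the 10 genes, of which Irak3 is highest at 0.83. The listed genes were drawn because they passed, so their distance from 0 follows from that choice. The 42 that did not pass are not drawn.

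Promoter windows from RefSeq (GRCm38.p6, 250 bases before to 50 after the annotated start) were found for 9 of the 10 genes and searched on both strands for the NF-kB consensus, an interferon response motif (GAAA, any 2 bases, GAAA) and the AP-1 motif TGANTCA. These were present in 8.46%, 3.44% and 7.81% of 32851 windows. Irak1 and Traf3 held an NF-kB match and Myd88 an interferon response match, shown here because they are the matches among the windows, with the match in capitals.
Irak1 promoter: agggcggcgcGGGACGCCCCcgtgtggcgg
Traf3 promoter: ggcggcccgcGGGGATTTCCagcgcgcgag
Myd88 promoter: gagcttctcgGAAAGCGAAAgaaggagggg
The Irak1 window was chrX:74023872-74024171, that of Traf3 chr12:111166120-111166419 and that of Myd88 chr9:119339969-119340268. The matches began 18, 10 and 40 bases before the annotated start. Irak3 and Ticam1, the genes that passed, held none of these letters in their windows.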

How the data were processed

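The authors deposited spot intensity values, output of Agilent Feature Extraction 10.7.1.1 per the file headers, which background-subtracted and detrended the processed signal within each array. Per the file headers, its outlier, saturation and background flags are part of the same output. A value table deposited by the authors was read as log2, from its slope on each array's signal. Its columns have the same median, its normalization method is not stated, and it was an alternative only.

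Outlier spots were left out, spots of a probe averaged as log2, and each array's 75th percentile subtracted. The kept probe with the highest mean stood for a gene. A mean per group was fitted to 12 arrays with limma 3.58.1 in R 4.3.3 (8 residual degrees of freedom), with Benjamini-Hochberg adjustment over 23909 features. The model was tested on simulated data, drawn as independent values without a slide effect, so that test does not cover the slides. Named genes were the 10 members and every listed pathway gene that passed. The rule for naming genes of like pattern required a member past a 2-fold averaged change and named none. The number of arrays limits the precision.

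The members, lists and tests were chosen with earlier results of these data known. Data were read with the R package data.table (version 1.17.8), and figures drawn with Python 3.11.15 and matplotlib 3.10.9. Alternatives covered background correction, normalization, probe filters, probe choice, the value table, slide, replicate block and leaving out each array. Using the other Irak2 probe, and each probe as its own feature, were chosen after seeing the data.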

Additional observations from a re-analysis of the deposited data

How the results depend on the processing

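Irak3 passed in 21 of 22 settings in lincRNA-siRNA cells (0.71 to 0.79), 21 of 22 in control-siRNA cells (0.78 to 1.01) and 22 of 22 on average (0.75 to 0.90), failing on slide 2 alone. Several of these settings could not move an Irak3 estimate. Irak3 has 1 probe, so the settings on probe choice kept its values. Leaving out an array of either siRNA kept the change under the other siRNA, such as 0.90 in control-siRNA cells. The tally is therefore not a count of independent checks. Unless a value shows it, the cause of a change below was not tested. Features past the threshold numbered 441 for LPS in lincRNA-siRNA cells (158 with the slide as a block, 45 on slide 2 alone, where 8 arrays remain, and 244 to 470 leaving out each array). They numbered 1228 in control-siRNA cells (231, 42 and 534 to 3980 in that order, and 715 with no filter on dim probes) and 1962 on average (526, 272, 1210 to 3672 and 1246). For the lincRNA siRNA with LPS 2 passed with the slide block. Without LPS 3 passed with normexp, 2 with the mean of all kept probes, 1 with the slide block and 0 to 2614 with leave-one-out, and the interaction gave 0 to 358. The counts of 3980, 3672, 2614 and 358 came without control-siRNA array 3, when the remaining control-siRNA arrays were all on slide 1, so slide and group cannot be told apart. The share of calls that were higher was 81.4%, 63.4% and 51.2% in lincRNA-siRNA cells, control-siRNA cells and on average, against 90.5%, 84% and 77% with the slide block. It was 76.2% in control-siRNA cells and 64.4% on average with no filter, and 50.6% and 42.6% with probes above background on all 12 arrays. The averaged share also fell below an even split with normexp (47.6%), quantile normalization (47.2%), the value table (47.4%) and the replicate block (49.1%). Leaving out each array gave 78.9% to 89.3%, 57.5% to 80.5% and 48.3% to 68.2%. Members passing numbered 0 in lincRNA-siRNA and 0 in control-siRNA cells on slide 2, 1 to 2 in control-siRNA cells with leave-one-out, and on average 1 with normexp, no filter, the slide block or slide 2 and 1 to 3 with leave-one-out. Ticam1 on average missed the threshold with normexp (0.36, adjusted p = 0.0811), no filter (0.40, adjusted p = 0.0722), slide 2 (0.34, adjusted p = 0.535) and without each of 7 single arrays. Tirap on average passed with quantile normalization (0.36), the value table (0.36) and probes above background on all 12 arrays (0.33).

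Of 1314 alternative values 70 changed sign, none of them past the threshold in either setting. With normexp these were LPS in control-siRNA cells for Traf3 (0.00), the siRNA with LPS for Irak2 (-0.01), Irak4 (0.05) and Traf3 (-0.06), and the interaction for Tirap (-0.04), Irak2 (-0.07) and Irak4 (0.13). With quantile normalization and with the value table alike they were LPS in lincRNA-siRNA cells for Ticam2 (-0.05), the siRNA with LPS for Irak2 (0.00), and the interaction for Irak2 (-0.01) and Irak4 (0.05). With the mean of all kept probes they were averaged LPS for Traf6 (0.06), the siRNA with LPS for Irak2 (-0.07) and Irak4 (0.19), the siRNA without LPS for Irak2 (-0.11) and Irak4 (0.10), and the interaction for Irak4 (0.09). With the slide as a block and on slide 2 alike they were LPS in lincRNA-siRNA cells for Traf3 (0.03), the siRNA with LPS for Myd88 (0.04), the siRNA without LPS for Irak2 (-0.14), Irak4 (0.03) and Traf3 (-0.09), and the interaction for Tirap (-0.06) and Traf3 (0.35). By its other probe Irak2 was at -0.17 and -0.25 for the siRNA with and without LPS. Leaving out each array gave -0.03 to 0.18 for Myd88 and -0.19 to 0.03 for Traf3 with LPS in control-siRNA cells, -0.11 to 0.43 for Ticam2 in lincRNA-siRNA cells, and -0.14 to 0.02 for Traf6 on average. For the siRNA with LPS it gave -0.11 to 0.11 for Myd88, -0.03 to 0.12 for Irak2, 0.00 to 0.04 for Irak3, -0.26 to 0.02 for Irak4, -0.07 to 0.12 for Traf3 and -0.28 to 0.04 for Traf6. For the siRNA without LPS it gave -0.04 to 0.12 for Irak2 and -0.13 to 0.01 for Irak4. For the interaction it gave -0.01 to 0.15 for Tirap, -0.13 to 0.07 for Ticam1, -0.08 to 0.09 for Irak2, -0.20 to 0.09 for Irak4 and -0.21 to 0.03 for Traf3.

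Whether replicate numbers pair the arrays was not settled by their correlations. Deviations of same-numbered arrays correlated at -0.30 to 0.47 over 18 pairs (median 0.09), 8 of them over 0.1. Those of differently numbered arrays correlated at -0.46 to 0.47 over 36 pairs (median 0.02), 14 of them over 0.1. Of the 12 arrays, 5 correlated best with their own number. With the replicate number as a block, 386, 1562 and 2291 features passed for LPS in lincRNA-siRNA cells, in control-siRNA cells and on average, and 1, 1 and 2 members. It changed no call among the members.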
